A study of Homo sapiens with 9 samples.

Results

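Cholesterol and fatty acid synthesis was followed through 36 genes, selected by name from the 58174 rows of the deposited expression table: 18 of the sterol branch, 13 of the fatty acid branch and 5 regulators. Every one of the 36 names matched a single row, and all 36 passed the filter of at least 1 TPM in at least 3 libraries, which 14118 genes passed. TPM is a length-normalised transcript abundance that sums to the same total in every library. RNA from cells labelled HepG2, a line established from a liver tumour, was sequenced in 9 libraries. 3 came from a line overexpressing NFE2L1, 3 from a line overexpressing NFE2L1DC, which the protocol writes with a delta before the C, and 3 from control cells. The control cells are labelled WT and are called pLVX cells in the protocol, after a lentiviral vector. All were grown in high-glucose medium with serum. The extent of the deletion, the promoter driving each transgene and whether a line is 1 clone are not stated in the available sources.

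Cells build cholesterol from acetyl-CoA through mevalonate, farnesyl diphosphate, squalene and lanosterol, and build fatty acids from the same acetyl-CoA through malonyl-CoA. Both branches are transcribed under the SREBP factors, which SCAP escorts out of the endoplasmic reticulum when membrane sterol is low and which the INSIG proteins hold back when it is high. SREBP-2 is best known for the sterol enzymes and SREBP-1c for the fatty acid enzymes, most of all in liver. NFE2L1 is itself anchored in that membrane, activates proteasome genes once processed, and has been described in mouse liver as a sensor of excess cholesterol.

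NFE2L1 had 207, 181 and 354 TPM in the NFE2L1 line and 445, 427 and 472 TPM in the NFE2L1DC line, against 104, 81.7 and 64.0 TPM in control, so every library of both lines lay above every control library. A gene-level value does not tell the full-length from the deleted form. The hepatocyte markers went against the labelled cell type: of 10 fixed markers, none reached 1 TPM in any library, the highest single value was 0.751 TPM, and ALB, FGA, FGB, FGG and APOH were listed at 0 in all 9. The libraries are therefore described as labelled HepG2, and statements on liver are background only. Of 10 markers of other cell types, PTPRC and LYZ were listed at 0 throughout, and PECAM1 and CDH5 stayed under 1 TPM. CD68, also a leukocyte marker, had 36.8, 33.8 and 41.6 TPM with NFE2L1 and 24.7, 24.5 and 26.4 TPM with NFE2L1DC. In control it had 23.0, 22.3 and 22.1 TPM. The 10 markers together had 128 to 143 TPM with NFE2L1 and 110.3 to 129 TPM with NFE2L1DC, against 149 to 170.0 TPM in control. Of these 10, 5 were tested. In the NFE2L1 line CD68 rose by 0.70 on the log2 scale (limma adjusted p = 0.00335). COL3A1 and PDGFRB fell there by 0.53 and 0.78 (adjusted p = 0.0110 and 0.0406). COL3A1 fell by 0.62 in the NFE2L1DC line (adjusted p = 0.0127). CD68 was also called higher in the NFE2L1 than in the NFE2L1DC line. Of all genes, 10.4%, 3.61% and 0.793% were called in these 3 comparisons. The part of these markers in the results that follow was not tested. Control replicate 3 stood apart from control replicates 1 and 2: on the first principal component it lay at 5.0, against -43.8 for both others. The overexpressing lines lay there from -1.2 to 23.0. On the second component control replicate 3 stood apart from every other library, at -37.9 against -3.6 to 10.9. Calls on the members and the lists are therefore also given without it or against it alone. Against it alone, CD68, COL3A1 and PDGFRB were at 0.73, -0.62 and -0.92 with NFE2L1, and COL3A1 at -0.71 with NFE2L1DC. The PDGFRB call held in 7 of 19 other settings. The table gives no counts, so sequencing depth is not known.

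Few of the 36 genes passed the adjusted test against control, at shares close to those of all genes. In the NFE2L1 line, 2 rose (ACSL4 and ELOVL6) and 2 fell (SREBF1 and MVD) at a limma adjusted p under 0.05, against 10.4% of all genes tested, 7.83% higher and 2.57% lower. In the NFE2L1DC line only SREBF1 passed, and it fell, against 3.61% of all genes, 2.06% higher and 1.54% lower. Between the NFE2L1 and NFE2L1DC lines none of the 36 passed, against 0.793% of all genes (0.715% higher and 0.0779% lower). In that comparison 1 member had an unadjusted p under 0.05, beside 1156 of all 14118 genes. The shares of the members called, 11.1%, 2.78% and 0 of 36, were close to those of all genes in each comparison. By mean TPM over the 9 libraries the genes ran from SCD at 298.0, FDPS at 294.2 and FDFT1 at 211.8 down to SC5D at 3.5 and INSIG2 at 1.8. Log2 fold changes here are differences of mean log2(TPM + 1), fitted in limma over all 9 libraries, and folds are ratios of mean TPM.

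**Figure D1:**
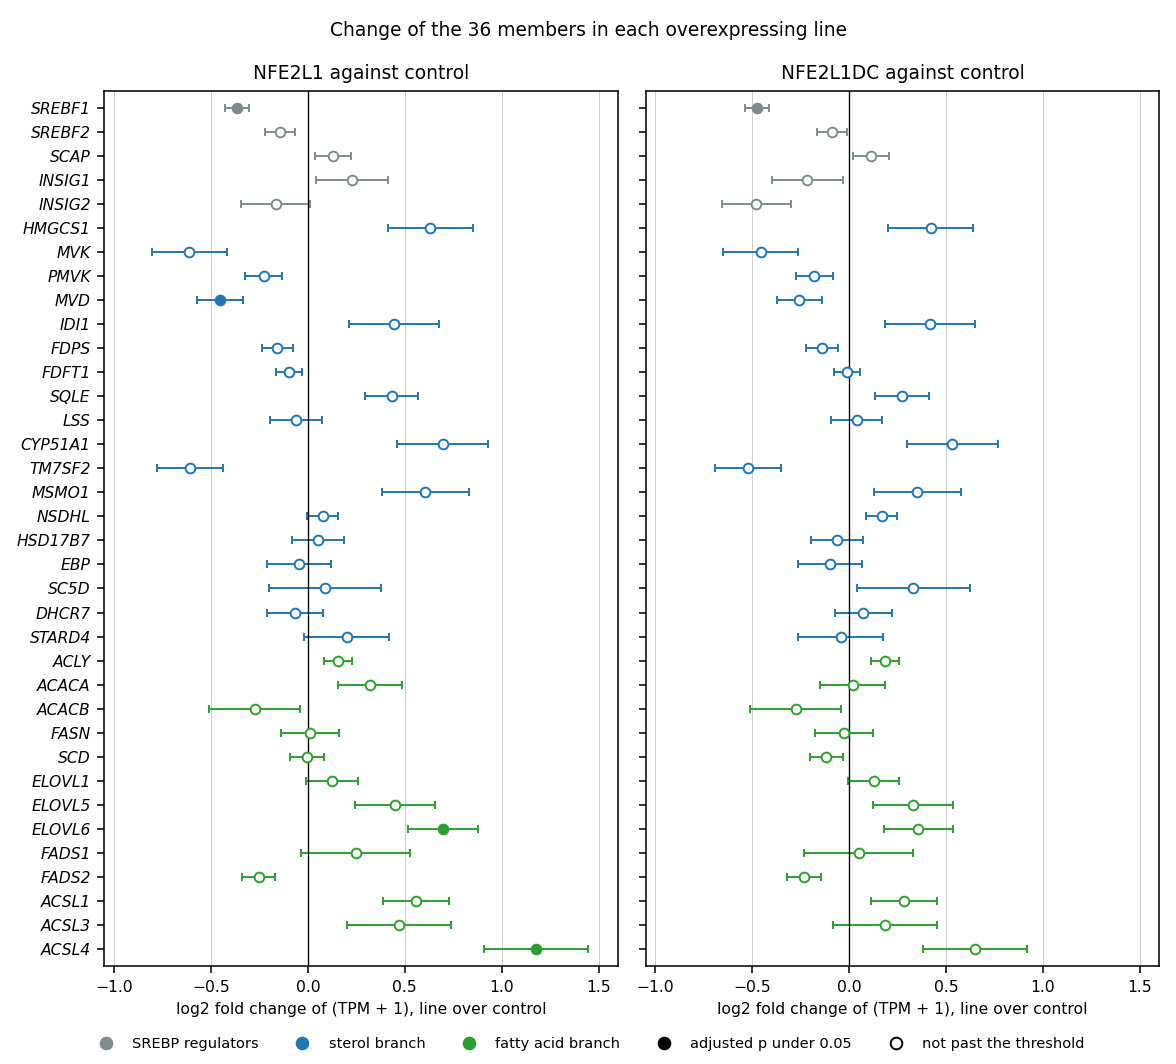
Log2 fold change of (TPM + 1) with its standard error for the 36 genes in the NFE2L1 line (left) and the NFE2L1DC line (right), each over the same 3 control libraries; filled points passed an adjusted p of 0.05. SREBF1 is the only filled point in both panels, and the sterol enzymes spread from -0.61 to 0.70 in the left panel.

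Among the regulators, SREBF1, which encodes SREBP-1a and SREBP-1c, was lower in both lines. It had 133, 131 and 125 TPM with NFE2L1 and 119, 121 and 121 TPM with NFE2L1DC, against 169, 171 and 162 TPM in control. Every library of both lines lay under every control library, and the replicates of a group differed by little. The mean was 129.7 ± 4.07 TPM with NFE2L1 and 120.0 ± 1.22 TPM with NFE2L1DC, against 168 ± 4.72 TPM in control (SD, n = 3 each). The log2 fold change against control was -0.37 with NFE2L1 (SE 0.06, limma adjusted p = 0.00835), a fold of 0.774. With NFE2L1DC it was -0.48 (SE 0.06, limma adjusted p = 0.00555), a fold of 0.716. Both comparisons use the same 3 control libraries. The call held in 17 of 19 other settings for NFE2L1 and in 18 of 19 for NFE2L1DC. Against control replicate 3 alone the changes were -0.32 and -0.43, with a single control library. In bulk RNA, a lower level in all cells and a smaller share of cells that express the gene cannot be told apart. SREBF1 (GRCh38 chromosome 17, 17810399 to 17837002, minus strand) overlaps RAI1 on the other strand, and the sources used here do not say whether the libraries kept strand. RAI1 did not pass the test in either line (log2 fold changes of -0.20 and -0.18 against control).

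**Figure D2:**
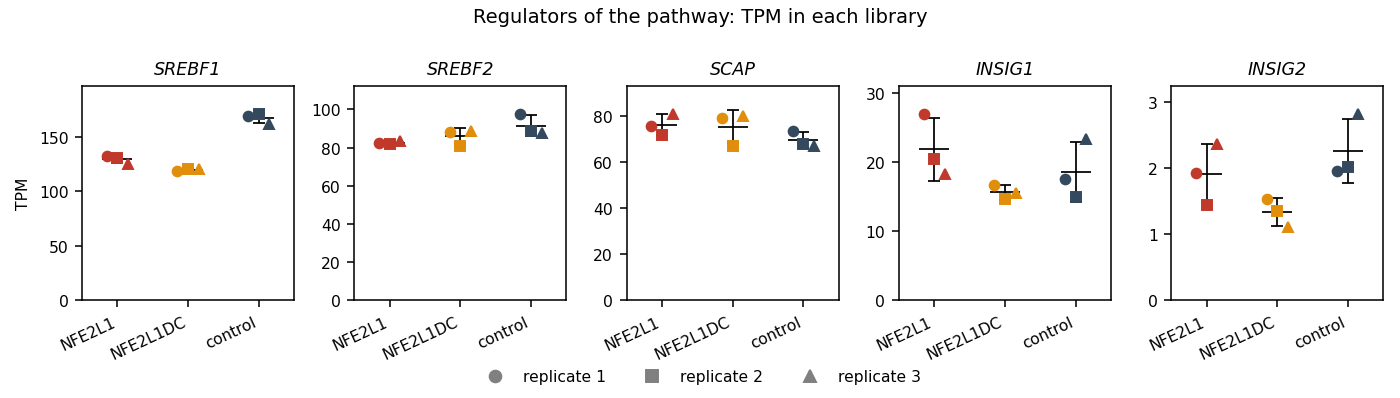
TPM of the 5 regulators in each library, with NFE2L1, NFE2L1DC and control from left to right. Marker shapes are replicate numbers, with no pairing labelled, and bars are the mean and SD of 3 libraries. SREBF1 libraries sit between 125 and 133 TPM with NFE2L1 and between 119 and 121 TPM with NFE2L1DC, under the lowest control library at 162 TPM.

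The other regulators did not pass the test. SREBF2, which encodes SREBP-2, had 82.2, 81.7 and 83.3 TPM with NFE2L1 and 88.3, 80.6 and 88.5 TPM with NFE2L1DC, against 97.6, 88.5 and 87.7 TPM in control. Its NFE2L1 libraries lay under all control libraries, by a log2 fold change of -0.14 (95% interval -0.32 to 0.03). SCAP, the escort of both SREBPs, had 75.8, 72.0 and 81.1 TPM with NFE2L1 and 79.1, 67.1 and 80.2 TPM with NFE2L1DC, against 73.5, 68.2 and 67.1 TPM in control, and its groups overlapped. The retention proteins differed in abundance, INSIG1 being the higher. INSIG1, itself a well-known SREBP target, had 27.0, 20.4 and 18.2 TPM with NFE2L1 and 16.8, 14.6 and 15.6 TPM with NFE2L1DC, against 17.6, 14.9 and 23.4 TPM in control. Its libraries separated between the lines but not from control. INSIG2 had 1.93, 1.44 and 2.36 TPM with NFE2L1 and 1.53, 1.35 and 1.10 TPM with NFE2L1DC, against 1.94, 2.02 and 2.81 TPM in control. The NFE2L1DC libraries of INSIG2 all lay under control, at a log2 fold change of -0.48 (limma adjusted p = 0.165). It passed in that comparison only once each library was corrected for GC content and transcript length, at -0.64 (adjusted p = 0.0291).

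The promoters of the 4 called genes are shown with that of SREBF2, the uncalled partner of SREBF1, so that the letters upstream of each can be set beside its values. Each is the 250 bases before the RefSeq start in build GRCh38.p14, 5′ to 3′ on the gene's strand. Other starts of these genes, where there are any, are not shown. The ELOVL6 window lies inside the annotated gene, which runs to 110199199. The other windows lie partly inside theirs, as the annotated genes reach 109733403 (ACSL4), 88663161 (MVD) and 17837002 (SREBF1), and SREBF2 starts at 41833079. Capitals mark CCAAT (the site of NF-Y), GGGCGG (the GC box of Sp1 factors), TCACNCC (the core of the sterol response element) and TGACNNNGC (the core of the antioxidant response element to which cap'n'collar factors bind), each searched on both strands. The windows are chr17:17836987-17837236 for SREBF1 (minus), chr22:41832855-41833104 for SREBF2 (plus), chr16:88663092-88663341 for MVD (minus), chr4:110198616-110198865 for ELOVL6 (minus) and chrX:109733258-109733507 for ACSL4 (minus).
SREBF1: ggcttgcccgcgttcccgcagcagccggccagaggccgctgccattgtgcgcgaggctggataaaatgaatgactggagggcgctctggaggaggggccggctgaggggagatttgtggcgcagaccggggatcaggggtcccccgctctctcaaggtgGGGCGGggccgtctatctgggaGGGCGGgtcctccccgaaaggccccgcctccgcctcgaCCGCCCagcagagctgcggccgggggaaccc
SREBF2: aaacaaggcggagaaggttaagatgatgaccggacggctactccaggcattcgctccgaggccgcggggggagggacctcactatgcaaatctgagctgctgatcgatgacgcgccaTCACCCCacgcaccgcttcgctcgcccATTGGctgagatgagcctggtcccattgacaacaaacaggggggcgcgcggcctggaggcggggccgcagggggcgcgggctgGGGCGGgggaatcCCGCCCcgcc
MVD: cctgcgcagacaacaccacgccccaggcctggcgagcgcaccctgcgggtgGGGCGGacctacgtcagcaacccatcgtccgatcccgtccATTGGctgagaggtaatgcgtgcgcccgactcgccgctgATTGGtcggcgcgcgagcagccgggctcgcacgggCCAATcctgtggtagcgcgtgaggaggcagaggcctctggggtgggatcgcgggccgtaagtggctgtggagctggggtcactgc
ELOVL6: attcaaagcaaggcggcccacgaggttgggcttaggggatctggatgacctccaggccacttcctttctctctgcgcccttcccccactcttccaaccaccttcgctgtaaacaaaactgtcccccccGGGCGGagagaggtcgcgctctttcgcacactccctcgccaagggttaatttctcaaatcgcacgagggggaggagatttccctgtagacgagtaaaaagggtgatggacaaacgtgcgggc
ACSL4: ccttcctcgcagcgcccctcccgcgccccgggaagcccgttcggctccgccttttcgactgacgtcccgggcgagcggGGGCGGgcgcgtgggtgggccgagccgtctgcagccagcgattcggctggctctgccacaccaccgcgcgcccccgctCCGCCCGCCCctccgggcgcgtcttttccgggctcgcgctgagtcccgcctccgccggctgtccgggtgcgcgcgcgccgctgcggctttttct
No 2 different motifs overlapped in these 5 windows. SREBF1, ELOVL6 and ACSL4 held GC boxes only, with 3, 1 and 3 matches, 2 of those of ACSL4 overlapping each other. SREBF2 held a sterol response core 133 bases and a CCAAT box 106 bases before the start. MVD held 3 CCAAT boxes, 159, 120 and 85 bases before the start. None of the 5 windows held the antioxidant response core, which says only that these letters are not in these windows.

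Entries were found for 33 of the 36 genes; FASN, FDFT1 and SQLE had none. Where a gene had several starts, a match in any window counted. CCAAT stood in 24 of the 33 (14 of 16 sterol and 8 of 12 fatty acid genes), against 37.0% of 27305 genes with an entry. GGGCGG stood in 31 of 33, against 46.2% of all genes. TCACNCC stood in 10 of 33, against 15.5%, and included HMGCS1, IDI1, MSMO1, MVK and NSDHL of the sterol branch. TGACNNNGC stood in 3 of 33, HMGCS1, ACSL1 and INSIG2, against 13.2%. The 27305 genes were not limited to those that passed the TPM filter, as all 33 members did. These shares are therefore not matched for expression. A match is a run of letters and not a measured site.

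The sterol branch opens with the mevalonate enzymes, which did not move together. HMGCS1, the synthase before mevalonate, had 13.1, 11.2 and 12.1 TPM with NFE2L1 and 11.4, 10.4 and 9.33 TPM with NFE2L1DC, against 6.37, 5.66 and 11.4 TPM in control. It was high against control replicates 1 and 2 and level with control replicate 3. The log2 fold change was 0.63 with NFE2L1 (limma adjusted p = 0.0934) and 0.42 with NFE2L1DC (adjusted p = 0.294), and against control replicate 3 alone 0.08 and -0.13. IDI1, the isomerase that makes dimethylallyl diphosphate, followed the same order with 16.4, 13.7 and 16.0 TPM with NFE2L1 and 17.8, 14.4 and 13.4 TPM with NFE2L1DC, against 8.60, 9.03 and 17.0 TPM in control.

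MVK, PMVK and MVD, which phosphorylate and decarboxylate mevalonate in turn, all had negative log2 fold changes in both lines. MVD had 20.3, 23.1 and 21.0 TPM with NFE2L1 and 21.2, 26.7 and 26.5 TPM with NFE2L1DC, against 32.0, 28.9 and 28.3 TPM in control. The control libraries of MVD all lay above both lines. MVD (GRCh38 chromosome 16, 88651935 to 88663161, minus strand) fell in the NFE2L1 line by 0.45 on the log2 scale (SE 0.12, limma adjusted p = 0.0417), a fold of 0.721, and was at -0.26 with NFE2L1DC (adjusted p = 0.243). This call held in 7 of 19 other settings; with 1 library left out it was lost without any NFE2L1 library, control replicate 1 or 2, or NFE2L1DC replicate 3 (-0.50 to -0.40). It was also lost with GC content and length corrected for (-0.29, adjusted p = 0.0955), with no filter, with the replicate block (adjusted p = 0.0773) and with only the 2 groups in the fit, and was -0.38 against control replicate 3 alone. MVK had 9.27, 9.13 and 10.4 TPM with NFE2L1 and 10.1, 10.6 and 11.7 TPM with NFE2L1DC, against 14.9, 20.8 and 11.2 TPM in control (log2 fold change -0.61 with NFE2L1, limma adjusted p = 0.0742). MVK shares its locus with MMAB on the other strand, so its reads are uncertain without strand; MMAB, chosen after its values were seen, fell with NFE2L1 by 0.59 (adjusted p = 0.0390). PMVK had 89.3, 102 and 93.9 TPM with NFE2L1 and 96.5, 104 and 94.8 TPM with NFE2L1DC, against 119.8, 117 and 98.5 TPM in control, and its groups overlapped.

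The most abundant enzymes of the branch did not pass the test. FDPS, which makes farnesyl diphosphate, had 273, 299 and 274 TPM with NFE2L1 and 285, 279.8 and 291 TPM with NFE2L1DC, against 340.5, 324 and 282 TPM in control. FDFT1, the squalene synthase, had 193, 213 and 203 TPM with NFE2L1 and 205, 216 and 225 TPM with NFE2L1DC, against 219, 219 and 213 TPM in control. Their log2 fold changes lay between -0.16 and -0.01 in the 2 lines. FDPS has processed pseudogenes, each listed under 0.2 TPM in every library.

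Past squalene the enzymes split again. SQLE, the squalene epoxidase and a rate-controlling step, had 32.2, 33.1 and 31.3 TPM with NFE2L1 and 32.2, 25.4 and 29.1 TPM with NFE2L1DC, against 20.9, 21.8 and 28.9 TPM in control. The NFE2L1 libraries of SQLE lay above all controls, at a log2 fold change of 0.43 (limma adjusted p = 0.0747). CYP51A1, the lanosterol demethylase, had 23.3, 21.6 and 22.0 TPM with NFE2L1 and 22.2, 19.8 and 17.6 TPM with NFE2L1DC, against 10.3, 10.8 and 21.2 TPM in control. Its change with NFE2L1 was 0.70 over all 3 controls (adjusted p = 0.0863), 1.01 without control replicate 3 and 0.07 against it alone. MSMO1, which removes the next methyl groups, had 11.5, 9.06 and 8.75 TPM with NFE2L1 and 8.82, 7.77 and 7.38 TPM with NFE2L1DC, against 4.79, 4.84 and 9.25 TPM in control. TM7SF2, a sterol reductase, lay the other way, with 11.4, 15.4 and 11.5 TPM with NFE2L1 and 11.8, 15.4 and 13.5 TPM with NFE2L1DC, against 20.7, 23.0 and 16.3 TPM in control. All control libraries of TM7SF2 lay above both lines, at log2 fold changes of -0.61 (limma adjusted p = 0.0525) and -0.52 (adjusted p = 0.125). TM7SF2 overlaps VPS51 on the same strand, a limit on its reads.

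LSS, NSDHL, HSD17B7, EBP, SC5D and DHCR7, which close the ring and finish the nucleus, and STARD4, a carrier of sterol between membranes, had log2 fold changes between -0.07 and 0.20 with NFE2L1 and between -0.10 and 0.33 with NFE2L1DC. None passed the test. The NFE2L1DC libraries of NSDHL, at 62.1, 66.7 and 63.3 TPM, lay above the control libraries, at 53.9, 60.4 and 56.4 TPM. DHCR7, the last reductase before cholesterol, had 81.2, 54.4 and 73.7 TPM with NFE2L1 and 83.1, 76.8 and 68.6 TPM with NFE2L1DC, against 79.6, 69.1 and 68.1 TPM in control, a spread between replicates wider than any shift between groups.

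**Figure D3:**
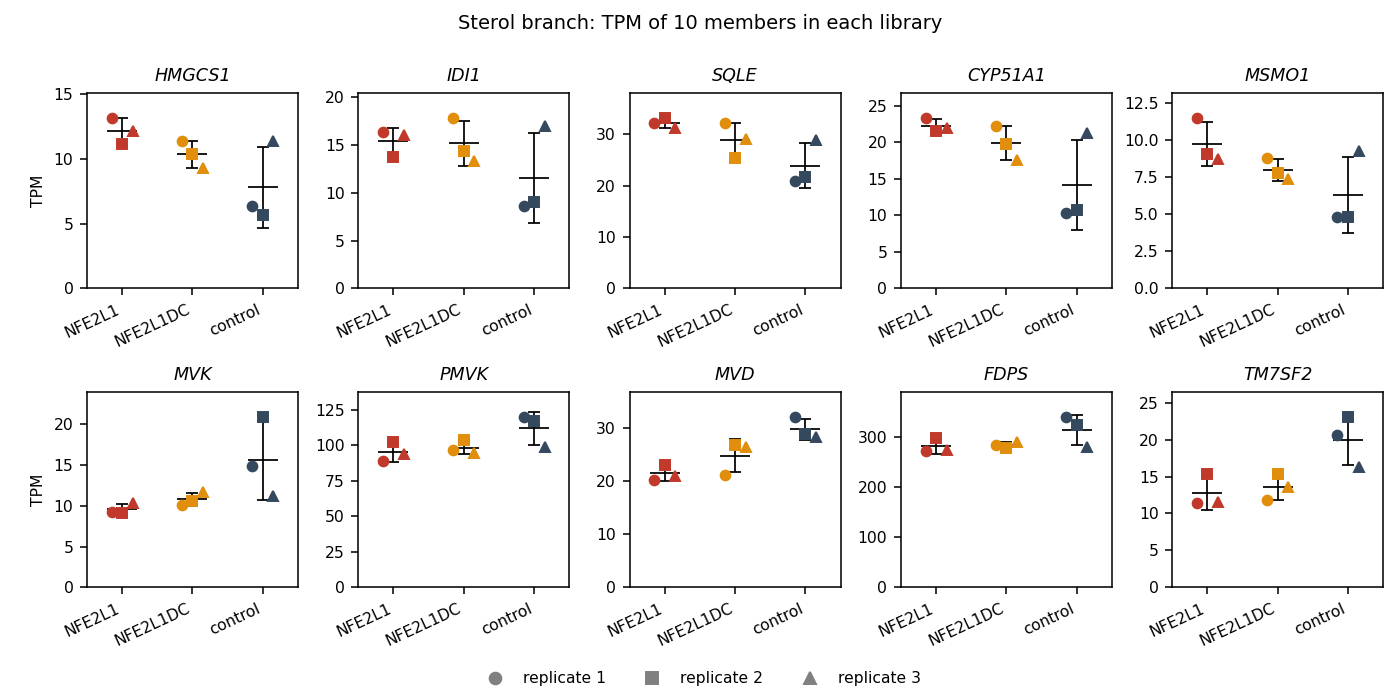
TPM of 10 sterol enzymes in each library, with NFE2L1, NFE2L1DC and control from left to right; shapes are replicate numbers and bars the mean and SD of 3 libraries. In the upper row control replicate 3 (triangle) sits with the overexpressing lines, as for CYP51A1 at 21.2 TPM, while control replicates 1 and 2 sit lower.

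In the fatty acid branch none of the early enzymes passed the test. ACLY, which releases cytosolic acetyl-CoA from citrate, had 185, 188 and 185 TPM with NFE2L1 and 195, 177 and 199 TPM with NFE2L1DC, against 178, 158 and 167 TPM in control. Its NFE2L1 libraries lay just above all controls, at a log2 fold change of 0.15 (95% interval -0.01 to 0.32). ACACA, the cytosolic acetyl-CoA carboxylase, had 61.1, 51.6 and 54.2 TPM with NFE2L1 and 40.3, 48.3 and 46.0 TPM with NFE2L1DC, against 56.8, 34.4 and 44.1 TPM in control. Its log2 fold change was 0.32 with NFE2L1 (95% interval -0.05 to 0.69) and 0.02 with NFE2L1DC, and its groups overlapped control. ACACB, its mitochondrial counterpart, averaged 4.92 ± 0.990 TPM with NFE2L1 and 4.92 ± 1.07 TPM with NFE2L1DC, against 6.27 ± 1.84 TPM in control (SD, n = 3 each). The log2 fold changes of ACACB were -0.27 with NFE2L1 (95% interval -0.80 to 0.25) and -0.28 with NFE2L1DC, intervals that also hold changes as large as that of SREBF1. FASN, the fatty acid synthase, had 165, 173 and 151 TPM with NFE2L1 and 181, 129 and 170.5 TPM with NFE2L1DC, against 189, 136 and 163 TPM in control. SCD, the desaturase that makes oleate, had 318, 298 and 299 TPM with NFE2L1 and 305, 251 and 292 TPM with NFE2L1DC, against 297, 293 and 329 TPM in control. FASN and SCD had log2 fold changes of 0.01 and -0.0044 with NFE2L1, with 95% intervals of -0.33 to 0.35 and -0.20 to 0.19. SREBF1 fell in both lines while these classical SREBP-1c targets did not pass the test; whether the changes of SREBF1 and its targets differ was not tested.

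Elongases and desaturases were mixed. ELOVL6, which extends palmitate to stearate, had 10.5, 10.7 and 13.3 TPM with NFE2L1 and 7.95, 9.07 and 9.60 TPM with NFE2L1DC, against 5.91, 5.64 and 8.91 TPM in control. All NFE2L1 libraries lay above all others, and the NFE2L1DC libraries overlapped control. ELOVL6 (chromosome 4, 110045846 to 110199199, minus strand) rose in the NFE2L1 line by 0.70 (SE 0.18, limma adjusted p = 0.0416), a fold of 1.69. This call held in 5 of 19 other settings; it was lost when GC content and length were corrected for (0.44, adjusted p = 0.0603), under median-of-ratios scaling (0.54, adjusted p = 0.0612) and without any 1 library other than control replicate 3. The ELOVL6 call was also lost with no filter and with only the 2 groups in the fit. Against control replicate 3 alone the change was 0.33. ELOVL5, an elongase of polyunsaturated chains, had 130.0, 126 and 122 TPM with NFE2L1 and 133, 109 and 107 TPM with NFE2L1DC, against 69.4, 82.9 and 135 TPM in control, where control replicate 3 was the highest of all 9 libraries. ELOVL1, an elongase of very long saturated chains, overlapped between groups and had log2 fold changes of 0.12 and 0.13. FADS2, the delta-6 desaturase, had 38.3, 38.7 and 39.8 TPM with NFE2L1 and 41.5, 38.6 and 38.5 TPM with NFE2L1DC, against 49.2, 42.7 and 48.1 TPM in control. Both lines of FADS2 lay under all controls, at -0.25 (limma adjusted p = 0.0904) and -0.23 (adjusted p = 0.167). Under median-of-ratios scaling FADS2 passed with NFE2L1, at -0.43 (adjusted p = 0.0452). FADS1, the delta-5 desaturase, had 61.1, 91.2 and 62.2 TPM with NFE2L1 and 65.4, 56.3 and 61.9 TPM with NFE2L1DC, against 42.4, 49.2 and 98.3 TPM in control, and its groups overlapped. FADS1 and FADS2 overlap on opposite strands, so without strand their reads cannot be fully told apart. FADS2 also overlaps FEN1 on the same strand, which reached 171 TPM, a further limit on its reads.

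The long-chain acyl-CoA synthetases, which activate fatty acids for use, held the largest change of the branch, that of ACSL4. ACSL4, which prefers arachidonate, had 6.15, 6.35 and 8.64 TPM with NFE2L1 and 5.24, 4.18 and 4.21 TPM with NFE2L1DC, against 2.22, 1.51 and 4.41 TPM in control. The NFE2L1 libraries lay above all others, while NFE2L1DC overlapped control through control replicate 3. ACSL4 (chromosome X, 109624244 to 109733403, minus strand) rose in the NFE2L1 line by 1.18 (SE 0.27, limma adjusted p = 0.0261), a fold of 2.60. With NFE2L1DC it was at 0.65 (adjusted p = 0.200), and the lines themselves differed by 0.53 (adjusted p = 0.678). The call held in 11 of 19 other settings, and was lost with no filter and with only the 2 groups in the fit. With 1 library left out it was lost without any NFE2L1 library and without control replicate 1 or 2 (0.93 to 1.26), and against control replicate 3 alone the change was 0.56. ACSL1, a synthetase of liver and fat, had 6.47, 5.37 and 4.87 TPM with NFE2L1 and 4.86, 3.75 and 4.66 TPM with NFE2L1DC, against 3.12, 3.04 and 4.26 TPM in control, a change of 0.56 with NFE2L1 (limma adjusted p = 0.0661). ACSL3, which sits on lipid droplets, had 17.8, 18.6 and 21.5 TPM with NFE2L1 and 19.1, 16.0 and 12.5 TPM with NFE2L1DC, against 11.1, 10.1 and 22.3 TPM in control. For ACSL3 the highest library of all was control replicate 3.

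**Figure D4:**
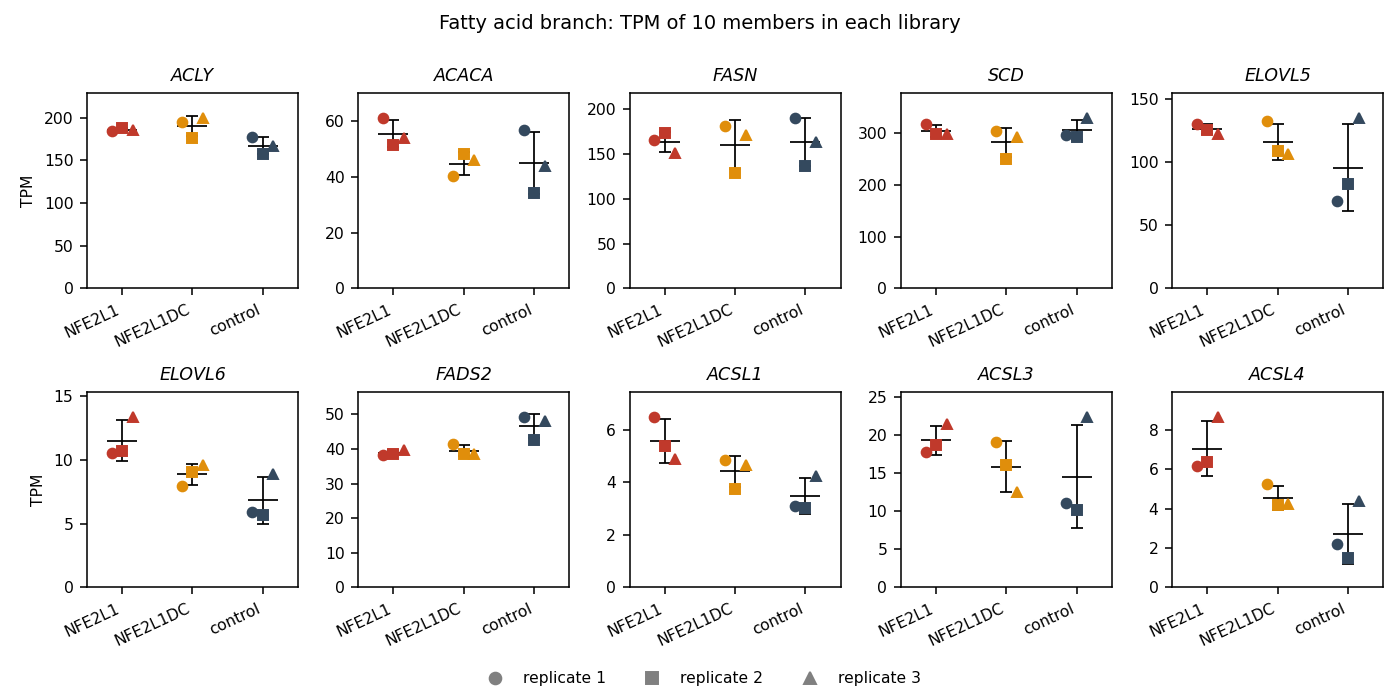
TPM of 10 fatty acid genes in each library, with NFE2L1, NFE2L1DC and control from left to right; shapes are replicate numbers and bars the mean and SD of 3 libraries. The NFE2L1 libraries of ACSL4 lie between 6.15 and 8.64 TPM, above all other libraries, and FASN and SCD overlap in all groups.

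Set side by side, the branches gave these counts and medians. With NFE2L1 against control, 0 of 18 sterol genes rose and 1 fell, with a median log2 fold change of 0.0034, 9 positive and 9 negative. In the fatty acid branch 2 of 13 rose and none fell, with a median of 0.25, 10 positive and 3 negative. Over all genes tested 7.83% were called higher and 2.57% lower, and the median was 0.17. With NFE2L1DC against control, no gene of either branch passed limma's adjusted test. An unadjusted p under 0.05 was held by 3 sterol and 3 fatty acid genes, beside 3066 of all 14118 genes. The medians were 0.01 for the sterol and 0.13 for the fatty acid branch, beside 0.12 for all genes. For NFE2L1 against NFE2L1DC they were -0.03 and 0.12, beside 0.06. Scaled by median of ratios, all genes had a median of 0.02 with NFE2L1, the sterol branch -0.17 and the fatty acid branch 0.07. With NFE2L1 the sterol branch lay below and the fatty acid branch above the median of all genes in both scalings. Without NFE2L1 replicate 2 the fatty acid median, 0.15, was below that of all genes, 0.18, and without control replicate 2 it was also 0.15, beside 0.12. With NFE2L1DC the fatty acid median was -0.02 without control replicate 2. Against control replicate 3 alone the NFE2L1 medians were -0.03 for the sterol and -0.0052 for the fatty acid branch, beside -0.0063 for all genes.

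Within each library the mean log2(TPM + 1) of the fatty acid genes exceeded that of the sterol genes by 0.54, 0.49 and 0.56 with NFE2L1 and by 0.39, 0.35 and 0.36 with NFE2L1DC, against 0.30, 0.15 and 0.45 in control. The NFE2L1 libraries had the widest gaps of all 9, and the NFE2L1DC libraries lay inside the control range. The fatty acid mean itself was 5.40, 5.39 and 5.41 with NFE2L1 and 5.32, 5.18 and 5.21 with NFE2L1DC, against 5.07, 4.90 and 5.38 in control. In summed TPM, led by FDPS and FDFT1, the sterol branch had 976, 1039 and 990.3 TPM with NFE2L1 and 1019, 1022 and 1032 TPM with NFE2L1DC, against 1116, 1063 and 1008 TPM in control. These levels are descriptions, given with no test.

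Counted by ranges, 13 of the 36 genes had NFE2L1 libraries that did not overlap control, 6 above and 7 below, against 32.1% of all genes, 22.6% above and 9.53% below. With NFE2L1DC, 1 gene lay above and 5 below, against 22.7% of all genes, 13.7% above and 8.98% below. The 5 below were SREBF1, INSIG2, MVD, TM7SF2 and FADS2. Between the NFE2L1 and NFE2L1DC lines, 6 genes lay apart, all higher with NFE2L1, against 18% of all genes, 12.4% above and 5.55% below: SREBF1, INSIG1, ACACA, ELOVL6, ACSL1 and ACSL4. INSIG1 came nearest to passing in that comparison, at a log2 fold change of 0.44 (SE 0.18, limma adjusted p = 0.570).

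The split inside the sterol branch ran alongside the base composition of the transcripts and the position of control replicate 3; the part of either in the changes was not tested. Of the 12 genes whose longest annotated transcript had a GC content under 45%, 11 had a positive log2 fold change with NFE2L1, with a median of 0.46. Of the 13 over 55%, 3 had, with a median of -0.16. Control replicate 3 was above both other controls in 11 of those 12 and below both in 10 of those 13. Against control replicate 3 alone, 6 of the 12 and 4 of the 13 were positive, with medians of -0.02 and -0.09. Across the 36 genes Spearman's rho between GC content and log2 fold change was -0.70 for NFE2L1 and -0.57 for NFE2L1DC, and -0.13 and 0.22 against control replicate 3 alone. Across 11445 protein-coding genes tested the same values were -0.44 and -0.37, and 0.16 and 0.30. The points of each correlation share the same libraries, so these values describe them and carry no test. Between NFE2L1 and NFE2L1DC, a contrast that takes no mean from the control libraries, rho was -0.65 over the 36 genes and -0.24 over the protein-coding genes. With each library corrected for GC content and transcript length, 2 of the 36 genes passed in each line, against 14.3% and 6.19% of all genes. After this correction rho over the 36 genes was -0.43 for NFE2L1 and -0.29 for NFE2L1DC. Over the protein-coding genes it was 0.01 and 0.02, so a trend with GC content remained among the 36. SREBF1 stayed lower with NFE2L1 (-0.26, limma adjusted p = 0.0480) and NFE2L1DC (-0.42, adjusted p = 0.0153). Its NFE2L1 call was lost when a replicate block was added to this correction. ACSL4 stayed higher with NFE2L1 (0.92, adjusted p = 0.00637), and the changes of HMGCS1 and CYP51A1 were 0.40 and 0.48 (adjusted p = 0.0689 and 0.0544).

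**Figure D5:**
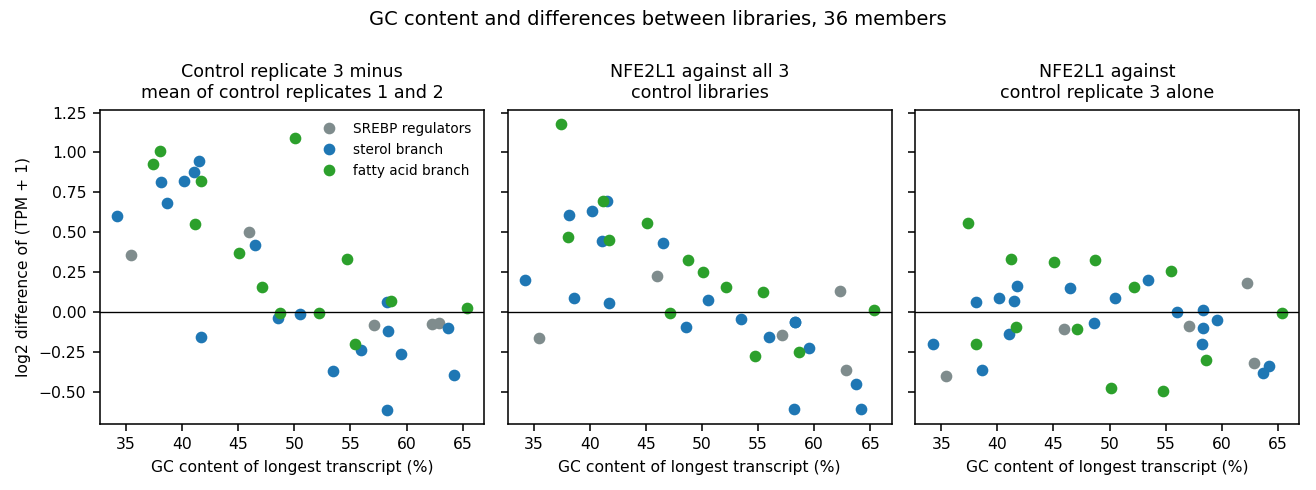
For each of the 36 genes, GC content of the longest transcript (horizontal) against the log2 difference of (TPM + 1): control replicate 3 minus control replicates 1 and 2 (left), NFE2L1 against all 3 controls (middle) and NFE2L1 against control replicate 3 alone (right). The downward trend of the left and middle panels, a rho of -0.73 and -0.70, is -0.13 in the right panel.

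Removing control replicate 3 changed the counts most. Without it, 17 of the 36 genes passed with NFE2L1, 11 higher and 6 lower, against 35.8% of all genes, and 13 with NFE2L1DC, 8 higher and 5 lower, against 24.4%. HMGCS1, IDI1, SQLE, CYP51A1 and MSMO1 were then higher in both lines, at 0.91, 0.73, 0.57, 1.01 and 0.88 with NFE2L1. MVK, PMVK, FDPS and TM7SF2 were then lower in both lines, and MVD with NFE2L1. In this setting 5 of 18 sterol genes rose and 5 fell with NFE2L1, and 5 rose and 4 fell with NFE2L1DC. Of 13 fatty acid genes, 6 rose with NFE2L1 (ELOVL5, ELOVL6, FADS1, ACSL1, ACSL3 and ACSL4) and 3 with NFE2L1DC (ELOVL5, ELOVL6 and ACSL4), and none fell. SREBF1 fell in both lines. With control replicate 3 as the only control, none of the 36 passed limma's adjusted test in either line, against 2.17% and 0.482% of all genes; the lone control library is there assumed to vary like the other groups.

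Other genes of lipid metabolism were read from lists, whose counts stand beside 10.4% of all genes called with NFE2L1 (7.83% higher, 2.57% lower; median 0.17) and 3.61% with NFE2L1DC (median 0.12). Of 14 genes of SREBP cleavage and turnover, 2 rose with NFE2L1, RNF145 among them, and none fell (median 0.47). RNF145, a ubiquitin ligase of the sterol-sensing machinery, had 37.0, 34.1 and 42.5 TPM with NFE2L1 and 30.7, 31.6 and 23.9 TPM with NFE2L1DC, against 16.0, 17.3 and 24.2 TPM in control (log2 fold change 0.96 with NFE2L1, limma adjusted p = 0.0102). Its change was 1.13 without control replicate 3 and 0.62 against it alone, and the call held in 18 of 19 other settings. With NFE2L1DC, 1 gene of the list rose and none fell (median 0.27). Of 12 other isoprenoid and sterol enzymes, PDSS1, which makes the ubiquinone side chain, had 27.5, 26.1 and 26.7 TPM with NFE2L1 and 30.2, 20.7 and 22.7 TPM with NFE2L1DC, against 11.9, 14.2 and 21.3 TPM in control. PDSS1 rose with NFE2L1 by 0.77 (limma adjusted p = 0.0452), a call that held in 8 of 19 other settings; the change was 0.99 without control replicate 3 and 0.32 against it alone. None passed limma's adjusted test with NFE2L1DC, and 3 had an unadjusted p under 0.05, beside 3066 of all 14118 genes. The medians of this list were 0.29 with NFE2L1 and 0.25 with NFE2L1DC.

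Of 21 other genes of fatty acid synthesis and elongation, 16 were tested. IDH1, a cytosolic source of NADPH, had 85.7, 91.6 and 68.5 TPM with NFE2L1 and 69.5, 56.4 and 56.4 TPM with NFE2L1DC, against 34.7, 33.2 and 57.0 TPM in control. It rose with NFE2L1 by 0.99 (limma adjusted p = 0.0179), with 0.51 against control replicate 3 alone, and TECR, the last reductase of elongation, fell by 0.30 (adjusted p = 0.0185), with -0.24 against control replicate 3 alone. The IDH1 call held in 13 and the TECR call in 12 of 19 other settings. With NFE2L1DC none passed limma's adjusted test, and 4 had an unadjusted p under 0.05, beside 3066 of all 14118 genes. The medians were 0.13 with NFE2L1 and 0.17 with NFE2L1DC. Of 20 genes of fatty acid oxidation, CPT1A, the carnitine gate into mitochondria, had 64.3, 63.4 and 64.7 TPM with NFE2L1 and 66.9, 59.8 and 69.5 TPM with NFE2L1DC, against 48.1, 44.8 and 44.9 TPM in control. It rose by 0.47 (limma adjusted p = 0.00930) and 0.50 (adjusted p = 0.0165). ACADS and ECI1 of the same list fell with NFE2L1 by 0.59 and 0.48 (adjusted p = 0.0134 and 0.0194), with -0.40 and -0.41 against control replicate 3 alone. The CPT1A changes were 0.50 and 0.53 against that library alone. Its calls held in 17 of 19 other settings with NFE2L1 and in 13 of 19 with NFE2L1DC. Both were lost under median-of-ratios scaling (0.30 and 0.39). The NFE2L1DC call was also lost with only the 2 groups in the fit and without control replicate 2, NFE2L1DC replicate 1 or NFE2L1DC replicate 3. The ECI1 call was also lost with GC content and length corrected for, at -0.27. The medians of the list were -0.0030 with NFE2L1 and -0.01 with NFE2L1DC. Of 13 tested genes of sterol efflux and LXR targets, and of 12 of glycerolipid assembly and storage, none passed limma's adjusted test in either line. With NFE2L1, 2 and 3 of them had an unadjusted p under 0.05, beside 4289 of all 14118 genes. With NFE2L1DC 0 and 1 of them had, beside 3066 of all genes. Their medians were 0.10 and 0.03 with NFE2L1, and 0.06 and -0.05 with NFE2L1DC. No gene of these 6 lists passed between the NFE2L1 and NFE2L1DC lines. There 1 each of cleavage and turnover, isoprenoid and fatty acid synthesis genes had an unadjusted p under 0.05, beside 1156 of all genes.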

How the data were processed

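Total RNA of 9 libraries in 3 groups of 3 was sequenced by a company. The authors deposited TPM per gene, scaled to a common total within each library (sums from 999983.0 to 999991.7). CASAVA and GRCh38 are named per the submitters' processing notes; the aligner, quantifier, filters and strandedness are not stated there. Depth is unknown, so no counting interval can be given.

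Genes at 1 TPM or more in at least 3 libraries were tested with limma 3.58.1 (R 4.3.3, trend on abundance, 3.34 prior degrees of freedom) on log2(TPM + 1), 1 mean per group, 2-sided, with Benjamini-Hochberg adjustment over the 14118 genes of each contrast. The script was tested on simulated data. Coordinates, GC content and length came from GENCODE release 29 (57836 of 58174 identifiers matched) and promoters from RefSeq GRCh38.p14. The 36 genes are named in the text with the called members of each fixed list, up to 3 per list and contrast by p. RAI1, MMAB and VPS51, which overlap members, and the relatives named under other observations were chosen after their values were seen. The values of 1 called gene of the list of SREBP cleavage and turnover are not reported here. The members and lists were chosen with earlier results of these data known. No pairing by replicate number is labelled, and libraries were treated as unpaired except where a replicate block is named. Whether replicates were separate cultures is not labelled; the spread behind each p-value may be technical. Alternatives covered pseudocount, filter, scaling, GC and length, replicate block, groups in the fit and each library left out.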

Additional observations from a re-analysis of the deposited data

How the results depend on the processing

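For NFE2L1 against control 4 of the 36 genes passed. The count was 1 with no filter (3.18% of all genes), 1 with only the 2 groups compared (6.01%), 5 with a filter of 5 TPM (15.3%), 2 when GC content and length were corrected for (14.3%) and 2 with that correction and the replicate block (10.5%). It was 0 with control replicate 3 as the only control (2.17%), a setting chosen after seeing the data, and 1 to 17 with 1 library left out (3.61% to 35.8%). For NFE2L1DC it was 1 (3.61% of all genes), with 2 after the GC and length correction (6.19%) and 1 to 13 with 1 library left out (0.815% to 24.4%). For NFE2L1 against NFE2L1DC it was 0 in all settings run (0.306% to 1.04% of all genes). The cause of these differences was not tested. The sterol median with NFE2L1, 0.0034, was -0.054 with a filter of 5 TPM, -0.17 under median-of-ratios scaling and -0.040 to 0.063 with 1 library left out. The fatty acid median with NFE2L1, 0.25, was 0.072 under median-of-ratios scaling and -0.0052 against control replicate 3 alone, and 0.15 to 0.33 with 1 library left out. With NFE2L1DC the sterol median was -0.10 under median-of-ratios scaling and -0.0012 to 0.10 with 1 library left out, and the fatty acid median -0.043 against control replicate 3 alone, 0.043 with GC content and length corrected for and -0.015 to 0.18 with 1 library left out, negative without control replicate 2. Between the NFE2L1 and NFE2L1DC lines the sterol median was -0.10 under median-of-ratios scaling, and the fatty acid median 0.10 to 0.22 with 1 library left out. SREBF1, ACSL4, ELOVL6 and MVD, in the comparisons where they were called over all 9 libraries, changed sign in no setting. Some genes called only without control replicate 3 did. FADS1 with NFE2L1, for example, was at 0.61 without that library and at -0.48 against it alone. Same-numbered libraries had correlations of deviations of -0.19 to 0.11, and other-numbered libraries of -0.18 to 0.28. With 3 libraries per group this cannot tell whether the numbers pair libraries. With the replicate block 4 genes passed limma's test with NFE2L1 (6.18% of all genes) and 1 with NFE2L1DC (1.4%). MVD was lost (limma adjusted p = 0.0773) and TM7SF2 gained (adjusted p = 0.0452). Without counts, the precision of genes near 1 TPM, such as INSIG2, cannot be stated.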

Other observations

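Some relatives of the fatty acid genes, which enter no comparison above by name, are given here and do not stand for the rest of their list. ELOVL2, ELOVL4 and ACSL6 were listed at 0 in all 9 libraries. ACSL5, a synthetase of gut and liver, had 2.07, 2.42 and 2.42 TPM with NFE2L1 and 2.46, 2.06 and 2.36 TPM with NFE2L1DC, against 2.84, 2.37 and 2.57 TPM in control. SCD5, the second human stearoyl-CoA desaturase, had 11.9, 9.49 and 10.5 TPM with NFE2L1 and 12.6, 9.91 and 11.6 TPM with NFE2L1DC, against 12.5, 12.4 and 13.2 TPM in control. The NFE2L1 libraries of SCD5 all lay under its control libraries. FADS3, which lies beside FADS1 and FADS2, had 45.6, 38.5 and 45.7 TPM with NFE2L1 and 51.7, 43.7 and 47.4 TPM with NFE2L1DC, against 41.1, 37.8 and 33.8 TPM in control, so the NFE2L1DC libraries lay above all controls. None of ACSL5, SCD5 and FADS3 passed limma's adjusted test in any comparison.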
